A study of Homo sapiens with 12 samples.

Results

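The 6 receptor tyrosine kinases (RTK) AXL, DDR1, EPHA1, EPHA2, MET and PDGFRB were followed through 12 RNA sequencing libraries of human hepatocellular carcinoma (HCC) cells. They were taken by name from a table of 11548 genes, which held all 6. AXL, DDR1, EPHA2 and PDGFRB were selected on a measured value, their higher level with AZD8055 against untreated cells, for which the study had singled them out among other RTK. Values of that comparison are therefore given below as a description, without a test. The group as a whole was put together with results of these libraries known, so that no p-value below is independent support for the choice of genes.

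The cells were the established HCC lines Hep3B, Huh7 and MHCC97H, all with genotype WT. Each was left untreated or was given AZD8055 (100 nM), an inhibitor of the mTOR kinase, compound #57, an allosteric inhibitor of the phosphatase SHP2 (PTPN11), or the combination of AZD8055 (100 nM) with compound #57 (5 µM). The dose of compound #57 alone is not given in the sources used here. Exposure was 48 h in Hep3B and Huh7 and 24 h in MHCC97H, and for MHCC97H the cell line cannot be told apart from its shorter exposure. There was 1 library per cell line and treatment and no replicate of any condition. In the model averaged over the cell lines, the lines served as the replicates of a treatment, and p-values measure the spread between them. In the model with drug effects in each line, no effect has a replicate. Its error is the departure of the libraries of a line from the sum of both drug effects, pooled over the lines (3 residual degrees of freedom). The p-values of single lines, and of differences between lines, rest on that error and not on repeated libraries.

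The libraries held 10667343 to 15968317 reads. Levels are given as reads per 10000000 reads of the library, called scaled reads below. Hepatocyte markers checked the label. Their summed level, 11 of 11 genes, was 275900 to 642000 scaled reads in Hep3B, 347300 to 523400 in Huh7 and 1453 to 3488 in MHCC97H, where HNF4A, a hepatocyte transcription factor, was the highest of them. The MHCC97H libraries thus held few reads of these markers, and results are given with and without them where a call turned on them. In bulk RNA, fewer cells that express a gene and less of its RNA per cell cannot be told apart.

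RTK are membrane proteins that dimerise or cluster when a ligand binds, phosphorylate each other on tyrosines and recruit adaptors, among them SHP2, which passes the signal on to RAS and the MAPK cascade. EPHA1 and EPHA2 bind ephrin-A ligands on neighbouring cells, DDR1 binds collagen, AXL binds GAS6, MET is the receptor of hepatocyte growth factor (HGF) and PDGFRB that of platelet-derived growth factors. In liver, MET serves hepatocyte growth and repair, while PDGFRB is best known from hepatic stellate cells and AXL from mesenchymal and macrophage-lineage cells. Transcription of EPHA2 is a known target of the MAPK cascade.

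EPHA2 was lower with compound #57 in every cell line, whether or not AZD8055 was present. The gene lies on the minus strand (hg38, chr1:16124337-16156069). In Hep3B, EPHA2 had 1194 scaled reads in untreated cells, 2093 with AZD8055, 519 with compound #57 and 1162 with the combination. In Huh7, EPHA2 had 1680, 1901, 765 and 820 scaled reads in the same order of treatments. In MHCC97H, EPHA2 had 1703, 1571, 769 and 585. The 3 compound #57 libraries all lay below the 3 untreated ones, and the 3 combination libraries below the 3 AZD8055 ones. The share of all genes whose libraries separate in this way was not counted, here or for the receptors below, so these orders are a description only.

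Against untreated cells, compound #57 lowered EPHA2 reads 2.30-fold in Hep3B (95% interval 2.11 to 2.52), 2.20-fold in Huh7 (2.05 to 2.36) and 2.22-fold in MHCC97H (2.05 to 2.40). These intervals, here and below, are Clopper-Pearson intervals of the ratio of reads in 2 libraries and cover counting error only. With AZD8055 present, the fold was 1.80 in Hep3B (1.69 to 1.92), 2.32 in Huh7 (2.15 to 2.50) and 2.69 in MHCC97H (2.47 to 2.93). In a limma model with the effect of each drug in each cell line, where the compound #57 effect is the mean of both pairs of libraries, EPHA2 fell in Hep3B by 1.02 on the log2 scale (SE 0.13, adjusted p = 0.00136), in Huh7 by 1.17 (SE 0.13, adjusted p = 0.00516) and in MHCC97H by 1.29 (SE 0.13, adjusted p = 0.00626). Of all genes, 13.3% were called lower in Hep3B, 3.43% in Huh7 and 0.736% in MHCC97H. No difference of these effects between cell lines passed, the widest being Hep3B minus MHCC97H at 0.26 (95% interval -0.15 to 0.67, limma adjusted p = 0.415).

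EPHA1, on the minus strand of chromosome 7 (chr7:143390289-143408856), went the other way with compound #57. In Hep3B, EPHA1 had 207 scaled reads in untreated cells, 177 with AZD8055, 421 with compound #57 and 328 with the combination. In Huh7, EPHA1 had 14.4, 9.14, 54.6 and 37.8 scaled reads, from 23, 11, 74 and 44 reads. In both lines the libraries with compound #57 lay above those without it. In MHCC97H, EPHA1 had 3, 2, 5 and 4 reads and could not be read at this depth.

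Against untreated cells, compound #57 gave 2.03-fold more EPHA1 reads in Hep3B (1.74 to 2.38) and 3.79-fold more in Huh7 (2.35 to 6.34). Against AZD8055 alone, the combination gave 1.86-fold more in Hep3B (1.57 to 2.20) and 4.14-fold more in Huh7 (2.11 to 8.89). By the model with drug effects in each line, EPHA1 rose in Hep3B by 0.95 (SE 0.27, limma adjusted p = 0.0331) and in Huh7 by 1.89 (SE 0.27, adjusted p = 0.0107), where 15.6% and 5.39% of all genes were called higher. The difference of the Hep3B and Huh7 effects was -0.94 and did not pass (95% interval -1.83 to -0.05, limma adjusted p = 0.315).

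Parts of both EPHA genes are covered by genes on the opposite strand, and whether reads were counted by strand is not given in the sources used here. ZYX shares 823 bases with EPHA1 and had 1915 to 2689 scaled reads in MHCC97H, where EPHA1 had 1.40 to 4.39. EPHA1-AS1 shares 1073 bases with EPHA1 and EPHA2-AS1 shares 894 bases with EPHA2, and neither is among the genes of the table.

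The promoters of the 2 ephrin receptors are shown because their RNA moved in opposite directions with the same drug. Each run holds 250 bases before and 50 after the RefSeq gene start, 5′ to 3′ on the strand of the gene, in GRCh38.p14, at chr1:16156020-16156319 for EPHA2 and chr7:143408807-143409106 for EPHA1. Capitals mark a match to a searched motif.
EPHA2: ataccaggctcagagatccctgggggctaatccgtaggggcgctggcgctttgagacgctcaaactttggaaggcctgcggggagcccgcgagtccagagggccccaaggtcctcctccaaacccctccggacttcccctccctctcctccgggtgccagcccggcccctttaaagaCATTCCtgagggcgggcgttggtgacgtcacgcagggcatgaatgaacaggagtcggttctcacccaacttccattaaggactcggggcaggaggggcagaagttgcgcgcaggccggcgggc
EPHA1: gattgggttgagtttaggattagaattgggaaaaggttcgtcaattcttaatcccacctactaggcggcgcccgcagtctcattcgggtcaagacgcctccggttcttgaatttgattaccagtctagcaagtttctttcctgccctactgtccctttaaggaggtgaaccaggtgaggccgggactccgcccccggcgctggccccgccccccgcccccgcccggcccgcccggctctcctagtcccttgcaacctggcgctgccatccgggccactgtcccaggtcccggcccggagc

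Motifs of 4 kinds of transcription factor were searched on both strands of these windows for the 6 receptors. The motifs were GTAAACA (FOXO factors), TGANTCA (AP-1), GGAATG (TEAD) and CCGGAA (ETS). They stand in 3.41%, 7.76%, 14.0% and 17.6% of 27305 RefSeq promoters of the same length. Among the 8714 of these promoters that belong to genes analysed here, the shares were 2.28%, 4.13%, 10.7% and 31.7%. Among the receptors, 1 match was found, the TEAD motif of EPHA2, whose reverse complement CATTCC starts at base -73 counted from the gene start. The windows of AXL, DDR1, EPHA1, MET and PDGFRB held no match, which says only that these letters are not in them. The DDR1 window (chr6:30880720-30881019) lies inside the span of the gene given below (chr6:30876421-30900156), so that it covers an internal start and not the start of that span. By base composition, the window of MET had 69.3% G and C and 30 CpG, that of EPHA2 64.3% and 20, and that of EPHA1 62.0% and 21. AXL had 66.0% and 7, DDR1 62.3% and 9, and PDGFRB 59.3% and 11, against a median of 58.3% over all promoters.

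PDGFRB (minus strand, chr5:150113839-150155872) was lower with compound #57 in the 2 lines that expressed it. In Hep3B, PDGFRB had 235 scaled reads in untreated cells, 462 with AZD8055, 49.3 with compound #57 and 72.1 with the combination. In Huh7, PDGFRB had 387, 500.0, 199 and 172 scaled reads. In MHCC97H it had 0, 5, 0 and 0 reads, where a count of 0 allows up to 2.30 scaled reads in untreated cells. Within both Hep3B and Huh7, the 2 libraries with compound #57 lay below the 2 without it.

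Against untreated cells, PDGFRB was 4.78-fold lower with compound #57 in Hep3B (3.69 to 6.25) and 1.94-fold lower in Huh7 (1.68 to 2.25). Against AZD8055, the combination had 6.41-fold fewer PDGFRB reads in Hep3B (5.12 to 8.11) and 2.91-fold fewer in Huh7 (2.47 to 3.43). In Hep3B PDGFRB fell by 2.45 (SE 0.47, limma adjusted p = 0.00712). In Huh7 the value was -1.24 (SE 0.47, adjusted p = 0.129), and the difference between Hep3B and Huh7, -1.20, did not pass (95% interval -2.72 to 0.32, adjusted p = 0.44). With 10 in place of 1 added to the linear values, the Huh7 effect passed at -1.21 (adjusted p = 0.0144).

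Fibroblast and stellate markers, of which 3 of 9 (LUM, COL1A1 and COL1A2) are analysed here, moved otherwise than PDGFRB in Hep3B. Their summed level in Hep3B was 100 scaled reads in untreated cells, 98.9 with AZD8055, 289 with compound #57 and 225 with the combination. In Huh7 it was 1085, 1632, 1261 and 1328. With compound #57 it was thus higher in Hep3B on either background, and in Huh7 higher than in untreated cells and, in the combination, lower than with AZD8055. Their part in the PDGFRB level was not tested.

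AXL (plus strand, chr19:41219223-41261766) was abundant in MHCC97H alone. There AXL had 577 scaled reads in untreated cells, 933 with AZD8055, 110 with compound #57 and 361 with the combination. In Hep3B AXL had 6, 40, 2 and 19 reads and in Huh7 1, 57, 0 and 6, in the same order. The 4 MHCC97H libraries all lay above the 8 others. Within each line AXL was highest with AZD8055 and lowest with compound #57, while untreated cells lay above the combination in MHCC97H and below it in the other lines. Over the 12 libraries, the 5 lowest AXL levels, from 0 to 6 reads, did not differ from their neighbours among themselves beyond the intervals of the ratios.

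Compound #57 lowered AXL reads 5.26-fold in MHCC97H (4.35 to 6.41), and 2.58-fold in the presence of AZD8055 (2.32 to 2.88). In Hep3B, AXL was 4.40-fold lower with compound #57 alone, from 2 against 6 reads, with an interval of that fold that runs from 0.786 to 44.5. On top of AZD8055, AXL was 2.13-fold lower in Hep3B (1.20 to 3.89) and 9.18-fold lower in Huh7 (3.97 to 26.0). No effect in a single line passed for AXL, the values being -1.29 in Hep3B (limma adjusted p = 0.102), -1.84 in Huh7 (adjusted p = 0.0675) and -1.88 in MHCC97H (adjusted p = 0.105), each with an SE of 0.53. With 10 added to the linear values, the MHCC97H effect passed at -1.82 (adjusted p = 0.0452), and with voom on the whole reads at -1.77 (adjusted p = 0.0138).

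MET (plus strand, chr7:116672196-116798377) set MHCC97H apart. In MHCC97H, MET had 136400 scaled reads in untreated cells, 168100 with AZD8055, 133300 with compound #57 and 161600 with the combination, or 1.36%, 1.68%, 1.33% and 1.62% of the reads of the library. In MHCC97H, MET ranked 1 of 11548 genes in 3 of the libraries and 2 in the AZD8055 library. In Hep3B MET had 2563, 2251, 1201 and 1245 scaled reads, and in Huh7 1586, 1447, 1472 and 1233. The lowest MHCC97H library exceeded the highest Hep3B library 50.1- to 54.1-fold by the interval of the ratio.

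The drug changes of MET were small beside that gap and were largest in Hep3B with compound #57. Compound #57 lowered MET reads 2.13-fold in Hep3B (2.01 to 2.26), 1.08-fold in Huh7 (1.02 to 1.14) and 1.02-fold in MHCC97H (1.02 to 1.03). On top of AZD8055, the folds were 1.81 (1.70 to 1.93), 1.17 (1.09 to 1.26) and 1.04 (1.03 to 1.05) in the same order. MET fell in Hep3B by 0.97 (SE 0.14, limma adjusted p = 0.00218), against -0.17 in Huh7 (adjusted p = 0.459) and -0.04 in MHCC97H (adjusted p = 0.908). The Hep3B effect was larger than that in MHCC97H by a test of the difference (-0.93, SE 0.19, 95% interval -1.38 to -0.48, limma adjusted p = 0.029), where 7.54% of all genes differed in either direction. Hep3B and Huh7, which shared the exposure time, differed by -0.80, which did not pass (SE 0.19, adjusted p = 0.12).

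The genes beside MET were read after its level had been seen. The table held 5 other genes whose start lies within 1000000 bases of that of MET. CAV1 and CAV2, which encode the caveolins of membrane caveolae, had 30550 to 89460 and 31690 to 59710 scaled reads in MHCC97H, and at most 307 and 437 in the other lines. On the log2 scale, the mean of the MHCC97H libraries exceeded that of the others by 8.04 for CAV1, 7.20 for CAV2, 6.57 for MET and 2.39 for TES. CAPZA2, on the other side of MET, stood at 0.87 and ST7 at -0.03. Of all genes, 14.8% were at least 2-fold higher in MHCC97H, and MET ranked 42 by this difference.

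**Figure D1:**
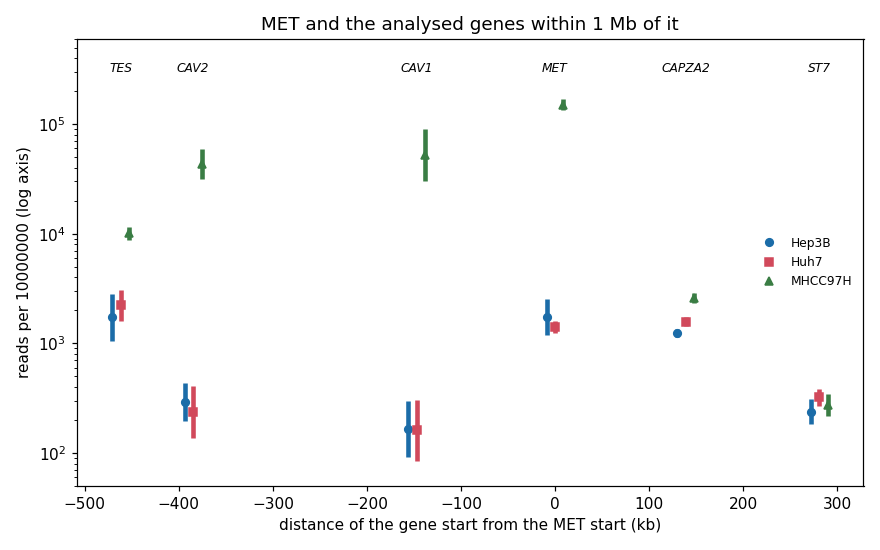
Range of scaled reads (log axis) over the 4 libraries of each cell line for MET and the 5 genes of the table within 1 Mb, placed by the distance of their start from that of MET in kb, with symbols at the geometric middle of the range. The MHCC97H ranges of TES, CAV2, CAV1, MET and CAPZA2 lie above those of the other lines, by the least for CAPZA2. That of ST7, 281 kb from MET, overlaps them.

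DDR1 (plus strand, chr6:30876421-30900156) was the member with higher levels under each drug and under both. In Hep3B, DDR1 had 578 scaled reads in untreated cells, 1878 with AZD8055, 1191 with compound #57 and 2076 with the combination. In Huh7, DDR1 had 210, 541, 277 and 483, and in MHCC97H 850, 2123, 1373 and 2997. Within every line untreated cells had the lowest level. The combination stood highest in Hep3B and MHCC97H, and in Huh7 it did not differ from AZD8055 beyond the interval of the ratio (0.892, 0.796 to 1.0).

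Compound #57 gave 2.06-fold more DDR1 reads in Hep3B (1.88 to 2.26), 1.32-fold more in Huh7 (1.14 to 1.54) and 1.62-fold more in MHCC97H (1.50 to 1.75). With AZD8055 present, DDR1 was 1.11-fold higher in Hep3B (1.04 to 1.17) and 1.41-fold higher in MHCC97H (1.35 to 1.48). The effect of compound #57 passed in no single line for DDR1, at 0.59 in Hep3B (limma adjusted p = 0.0702), 0.12 in Huh7 (adjusted p = 0.757) and 0.59 in MHCC97H (adjusted p = 0.184).

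Averaged over the 3 lines, in a limma model with treatment and cell line as terms, 0 of the 6 receptors passed for compound #57 against untreated cells, where 1 gene (0.00866%) of the table did. Of the 6, 5 had an unadjusted p under 0.05, as had 21.7% of all genes. The values were -1.16 for EPHA2 (SE 0.26, adjusted p = 0.0912), 0.71 for DDR1 (SE 0.15, adjusted p = 0.0912), 1.19 for EPHA1 (adjusted p = 0.105), -1.06 for PDGFRB (adjusted p = 0.19), -1.54 for AXL (adjusted p = 0.196) and -0.41 for MET (adjusted p = 0.326). Without MHCC97H, EPHA1 (1.44, adjusted p = 0.0474) and EPHA2 (-1.17, adjusted p = 0.0452) passed, beside 778 genes of the table in place of 1. Within the lines, on the log2(value + 1) scale, compound #57 left 4 of the 6 receptors at least 2-fold lower in Hep3B (AXL, EPHA2, MET and PDGFRB), 1 in Huh7 (EPHA2) and 2 in MHCC97H (AXL and EPHA2), beside 3.75%, 1.52% and 0.84% of all genes. At least 2-fold higher were 2 in Hep3B (DDR1 and EPHA1), 1 in Huh7 (EPHA1) and 0 in MHCC97H, beside 8.96%, 4.43% and 3.12%.

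For the combination against AZD8055, 0 of the 6 receptors and 0 genes of the table (0.0%) passed in limma, and 0 also with voom on the whole reads. At an unadjusted p under 0.05 were 4 receptors (AXL, EPHA1, EPHA2 and PDGFRB) and 1673 genes (14.5%). PDGFRB had -2.12 (SE 0.42, adjusted p = 0.151) and EPHA2 -1.16 (SE 0.26, adjusted p = 0.169). AXL had -1.79, EPHA1 1.21, MET -0.38 and DDR1 0.16. At least 2-fold lower were 2 of the 6 in Hep3B (AXL and PDGFRB), 3 in Huh7 and 3 in MHCC97H (AXL, EPHA2 and PDGFRB in both), beside 3.33%, 1.84% and 1.13% of all genes. At least 2-fold higher was EPHA1 in Huh7, beside 5.73%, 4.0% and 2.81% of all genes in Hep3B, Huh7 and MHCC97H. In MHCC97H, PDGFRB rests on 0 reads against 5, which is 1.45-fold lower when the 0 is set to 3 reads. The counting interval of the ratio of the combination to AZD8055 reaches up to 1.26 there and thus holds 1. The AZD8055 libraries of this comparison are among those from which the study picked 4 of the receptors.

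Both compound #57 comparisons share no library, and their mean was taken as an alternative after the data were seen. It weighs untreated and AZD8055 libraries alike, so that the difference between them does not enter it. By this mean, 5 of the 6 receptors passed. The mean is given for the main fit only, not for the alternatives or with a cell line left out. Whether its calls turn on a single line is therefore not shown. EPHA2 had -1.16 (SE 0.18, limma adjusted p = 0.0155) and was lower in 6 of 6 pairs of libraries. EPHA1 had 1.20 (SE 0.22, adjusted p = 0.018) and was higher in 6 of 6, of which the 2 pairs of MHCC97H rest on 5 against 3 and 4 against 2 reads and lay within counting error. PDGFRB had -1.59 (SE 0.30, adjusted p = 0.0184) and was lower in 5 of 6, of which 0 against 5 reads in MHCC97H lay within counting error. The other pair, also of MHCC97H, had 0 reads in both libraries. AXL had -1.67 (SE 0.44, adjusted p = 0.044) and was lower in 6 of 6, of which 2 against 6 reads in Hep3B and 0 against 1 in Huh7 lay within counting error. DDR1 had 0.44 (SE 0.11, adjusted p = 0.0367, higher in 5 of 6), and MET had -0.40 and did not pass (adjusted p = 0.135, lower in 6 of 6). Of all genes, 3.34% were called lower and 6.92% higher.

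With AZD8055 alone, the levels above give the description that led to the choice of 4 of the genes. Against untreated cells, AXL reads were 5.81-fold higher in Hep3B (2.45 to 16.8) and 1.62-fold higher in MHCC97H (1.48 to 1.77). In Huh7 the AXL ratio was 75.6 from 57 reads against 1, with an interval from 13.0 to 3038. DDR1 reads were 3.25-fold higher in Hep3B, 2.58-fold higher in Huh7 and 2.50-fold higher in MHCC97H. At least 2-fold higher on the log2(value + 1) scale were 2 of the 6 receptors in each line (AXL and DDR1 in Hep3B and Huh7, DDR1 and PDGFRB in MHCC97H), and 3.81%, 5.89% and 7.14% of all genes in Hep3B, Huh7 and MHCC97H. None of the 6 was at least 2-fold lower in a line, as were 0.823%, 2.52% and 3.07% of all genes. PDGFRB reads were 1.96-fold higher in Hep3B (1.69 to 2.29) and 1.29-fold higher in Huh7 (1.15 to 1.45). PDGFRB in MHCC97H rests on 5 reads against 0, a ratio of 1.52 when the 0 is set to 3 reads. The counting interval of this ratio starts at 0.837 and thus holds 1.

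EPHA2, MET and EPHA1 responded little or unequally to AZD8055 alone. EPHA2 reads were 1.75-fold higher in Hep3B (1.64 to 1.88), 1.13-fold higher in Huh7 (1.07 to 1.20) and 1.08-fold lower in MHCC97H (1.02 to 1.15). MET reads were 1.14-fold lower in Hep3B (1.08 to 1.20), 1.10-fold lower in Huh7 (1.03 to 1.17) and 1.23-fold higher in MHCC97H (1.23 to 1.24). For EPHA1, the intervals of the ratio in Hep3B and Huh7 held 1.

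The combination against compound #57 asks for the effect of AZD8055 in libraries that took no part in that choice. DDR1 rose by 0.91 on average (SE 0.15, 95% interval 0.57 to 1.25, limma adjusted p = 0.025), as 1 of the 6 receptors called, against 2.62% of all genes called higher and 4.18% in either direction. DDR1 was 1.74-fold higher in Hep3B (1.64 to 1.85), 1.74-fold in Huh7 (1.53 to 1.99) and 2.18-fold in MHCC97H (2.06 to 2.32). The call for DDR1 was lost when any 1 cell line was left out, with values of 0.96 without Huh7 (adjusted p = 0.389), 0.96 without Hep3B (adjusted p = 0.119) and 0.80 without MHCC97H (adjusted p = 0.0682).

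AXL had the largest average value of the 6 in this comparison, 2.39 (SE 0.63), and did not pass (limma adjusted p = 0.0629). It was 3.30-fold higher in MHCC97H (2.70 to 4.05). In Huh7, from 6 reads against 0, it was 2.33-fold higher when the 0 is set to 3 reads, with a counting interval that starts at 1.37. In Hep3B the AXL ratio was 12, from 19 against 2 reads, with an interval from 2.90 to 107. With only the 6 libraries compared in the fit, AXL passed at 2.39 (adjusted p = 0.0365). With 10 in place of 1 added to the linear values, AXL had 1.13 (adjusted p = 0.104), and with voom on the whole reads 2.40 (adjusted p = 0.11). EPHA2 had 0.29, from 2.24-fold higher in Hep3B (2.05 to 2.44) to 1.32-fold lower in MHCC97H (1.19 to 1.45), PDGFRB 0.11, MET 0.02 and EPHA1 -0.41, and none of these passed.

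**Figure D2:**
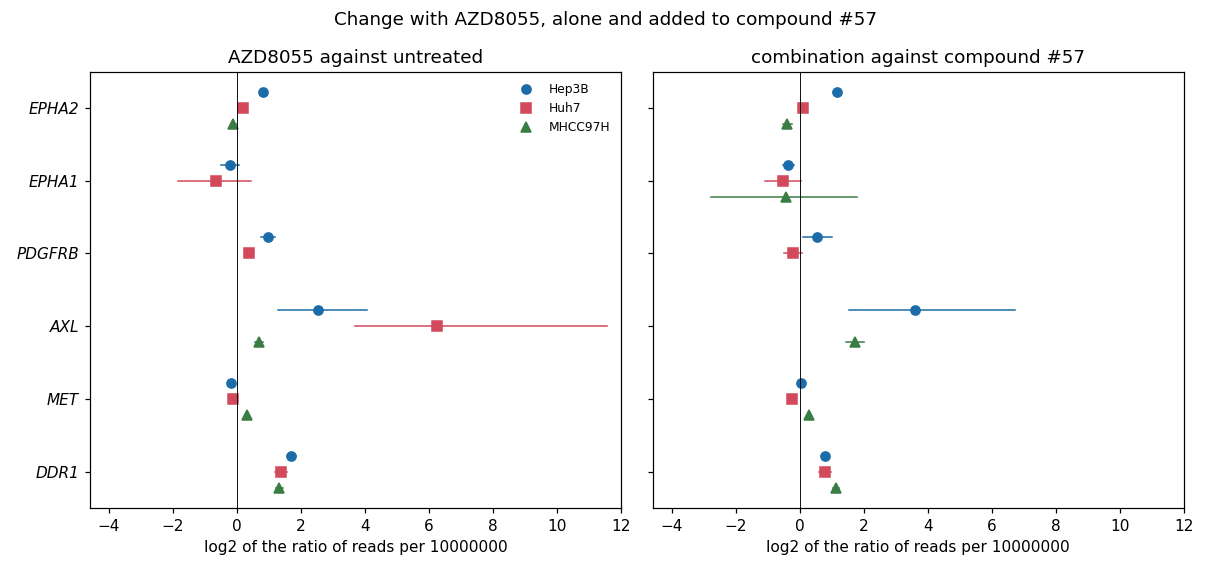
Log2 ratio of scaled reads with AZD8055, alone against untreated cells (left) and in the combination against compound #57 (right), 1 point per cell line, with bars for the 95% counting interval. Pairs with 0 reads in a library or at most 3 in both are not drawn. DDR1 and AXL lie above 0 in every pair drawn, and EPHA2 lies above 0 in Hep3B and below 0 in MHCC97H.

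Mesenchymal markers, of which 5 of 8 are analysed here, were also higher with AZD8055. In Hep3B their summed level was 25080 scaled reads in untreated cells, 40140 with AZD8055, 28370 with compound #57 and 62090 with the combination. In Huh7 it was 65380, 140600, 79030 and 102900, and in MHCC97H 82930, 171600, 84760 and 133500. FN1, which encodes fibronectin, was the highest gene of the list in every line. Epithelial markers, of which 6 of 7 are analysed here, were higher with AZD8055 alone too. Their summed level, against that of untreated cells, was 62840 against 39860 in Hep3B, 75310 against 42260 in Huh7 and 63500 against 54010 in MHCC97H. In the combination, against compound #57, it was 62750 against 62770 in Hep3B, 68400 against 51550 in Huh7 and 59090 against 54460 in MHCC97H. The part of either list in the AXL and DDR1 levels was not tested.

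For the combination against untreated cells, 2 of the 6 receptors were called, beside 4154 of 11548 genes (20.9% of all genes higher and 15.1% lower). The count of receptors is thus near the share of all genes called in either direction. The untreated libraries of this comparison, and of compound #57 against untreated cells, are also the reference of the values on which both genes were selected. DDR1 rose by 1.62 (SE 0.15, 95% interval 1.28 to 1.96, limma adjusted p = 0.00119), being 3.60-fold higher in Hep3B, 2.30-fold in Huh7 and 3.53-fold in MHCC97H. EPHA2 fell by 0.87 (SE 0.26, adjusted p = 0.0277). The EPHA2 value came from Huh7 (2.05-fold lower, 1.90 to 2.21) and MHCC97H (2.91-fold lower, 2.68 to 3.17), while in Hep3B the interval held 1 (1.03-fold lower, 0.952 to 1.11). EPHA2 no longer passed without Huh7 (-0.79, adjusted p = 0.211) or without MHCC97H (-0.54, adjusted p = 0.146).

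The other receptors did not pass for the combination against untreated cells. EPHA1 had 0.78 (limma adjusted p = 0.0759), PDGFRB -0.95 (adjusted p = 0.103), AXL 0.85 (adjusted p = 0.305) and MET -0.39 (adjusted p = 0.213). Without MHCC97H, which had next to no PDGFRB reads, PDGFRB passed at -1.43 (adjusted p = 0.0311). AXL went both ways, with a ratio of 2.74 in Hep3B (1.05 to 8.37) and 1.60-fold fewer reads in MHCC97H (1.42 to 1.80).

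Whether the combination departed from the sum of both single drugs on the log2 scale was tested as an interaction, for which 0 genes of the table (0.0%) and 0 of the receptors passed in limma, and 0 with voom. At an unadjusted p under 0.05 were 178 genes (1.54%). The interaction contains the difference between AZD8055 and untreated cells, with a minus sign, on which AXL, DDR1, EPHA2 and PDGFRB were selected, so that a high value there lowers it. For these 4 it is therefore a description, with values of -0.55 for DDR1, -1.06 for PDGFRB, -0.25 for AXL and within 0.05 of 0 for EPHA2. EPHA1 (95% interval -0.97 to 1.02) and MET (-0.71 to 0.77) also lay within 0.05 of 0, with intervals that leave room for changes up to about 2-fold.

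**Figure D3:**
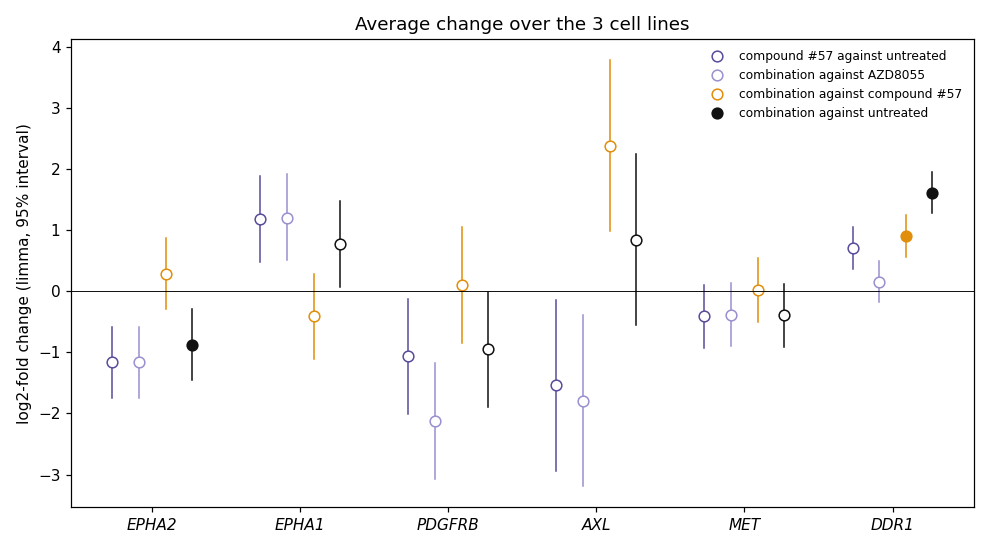
Average log2-fold change of each receptor over the 3 cell lines in 4 comparisons, from limma with treatment and cell line as terms, with 95% intervals. Filled points passed an adjusted p of 0.05, which were DDR1 in the combination against compound #57 and DDR1 and EPHA2 in the combination against untreated cells.

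Levels of different receptors were compared only per kilobase of the exons of all transcripts. In untreated Hep3B, MET came first with 355 scaled reads per kb, before EPHA2 (288), DDR1 (63.3), EPHA1 (44.1), PDGFRB (33.0) and AXL (1.10). In untreated Huh7, EPHA2 came first (406), before MET (220), PDGFRB (54.2), DDR1 (23.0), EPHA1 (3.07) and AXL (0.122). In untreated MHCC97H, MET had 18880 scaled reads per kb, EPHA2 411, AXL 113 and DDR1 93.2. With the combination, DDR1 (329) came before EPHA2 (141) in MHCC97H and before MET in Hep3B (228 against 172). The place of DDR1 depends on the length used. With that of the longest transcript, DDR1 in untreated cells had 139 scaled reads per kb in Hep3B, 50.6 in Huh7 and 205 in MHCC97H, where it then came before AXL (122). With the combination in Hep3B, DDR1 then came first of the 6 (501, before EPHA2 with 294.5), while by the exons of all transcripts EPHA2 came first (281).

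The closest relatives of the 6 receptors gave 3 genes of 20 for analysis, TYRO3, MERTK and EPHB4. TYRO3, which like AXL belongs to the TAM receptors, fell with the combination against untreated cells by 0.54 (SE 0.18, limma adjusted p = 0.0419). It was the only relative of the 3 called there, beside 15.1% of all genes called lower and 20.9% higher. MERTK, the other TAM receptor, had -0.45 (adjusted p = 0.175) and EPHB4, a receptor of ephrin-B2, -0.17 (adjusted p = 0.591). None of the 3 passed for compound #57 against untreated cells, where their values were -0.58, 0.08 and -0.26.

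Of the ligands, 11 of 20 are analysed here. With the combination against untreated cells, 6 of 11 rose and 0 fell, beside 20.9% and 15.1% of all genes, with a median of 1.50 against 0.086 over all genes. Among ligands of PDGFRB, PDGFB rose by 2.36 (SE 0.46, limma adjusted p = 0.00586), and PDGFA (1.91, adjusted p = 0.00621) and PDGFC (1.50, adjusted p = 0.00452), which bind mainly the alpha receptor, rose too. Of the ephrins, EFNA1 rose by 1.81 (SE 0.38, adjusted p = 0.00795) and EFNA2 by 1.97 (adjusted p = 0.00377). COL1A1, a collagen chain, rose by 2.15 (SE 0.65, adjusted p = 0.0289). PROS1, protein S, a ligand of TYRO3 and MERTK, had -0.02 (adjusted p = 0.97), with 2.48-fold more reads in MHCC97H. GAS6 and HGF are not among the genes analysed.

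With compound #57 against untreated cells, 0 of 11 ligands passed. At an unadjusted p under 0.05 were 2 of 11, beside 21.7% of all genes. The median was 0.82 against 0.047 over all genes. PDGFA had 1.66 (SE 0.38, limma adjusted p = 0.0912), with 895 against 144 reads in Hep3B, 62 against 11 in Huh7 and 102 against 92 in MHCC97H. With the combination against compound #57, PDGFC rose by 1.17 (SE 0.27, adjusted p = 0.0448) as 1 of 11, beside 2.62% of all genes called higher. With the combination against AZD8055, 0 of 11 passed and the median was 0.51 against 0.040, and in Huh7 alone it was 0.01 against 0.036.

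Among genes of receptor processing and turnover, 10 of 14 are analysed here. With the combination against untreated cells, 4 of 10 were called higher and 1 lower, beside 20.9% and 15.1% of all genes. Against compound #57, 2 of 10 were called higher, beside 2.62% of all genes. SPINT1, an inhibitor of the proteases that activate HGF, rose with the combination against compound #57 (1.29, SE 0.27, limma adjusted p = 0.0383) and against untreated cells (2.54, SE 0.27, adjusted p = 0.00169). HPN, the protease hepsin, rose by 1.09 (adjusted p = 0.0469) and 1.62 (adjusted p = 0.00334) in the same comparisons. Against untreated cells, CBLB (0.72, adjusted p = 0.0361), a ubiquitin ligase of activated receptors, and ST14 (1.32, adjusted p = 0.0242), the protease matriptase, rose as well. LRIG1, a negative regulator of RTK, fell by 0.80 (adjusted p = 0.0279). The median of the list was 0.26 against 0.086 over all genes. Neither compound #57 against untreated cells nor the combination against AZD8055 called any of the 10.

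PTPN11, which encodes the target of compound #57, stayed within 2853 to 3243 scaled reads in Hep3B, 4132 to 5057 in Huh7 and 3451 to 4410 in MHCC97H. Its average change with compound #57 was 0.05 (SE 0.14, limma adjusted p = 0.846). An inhibitor of the protein need not change this RNA, so that it does not check the treatment. All 12 adaptors and effectors of the list are in the table, of which 5 rose and 2 fell with the combination against untreated cells, beside 20.9% and 15.1% of all genes. GAB1, the docking protein of MET, rose by 1.10 (SE 0.20, adjusted p = 0.00443), SOS1 by 1.09, SOS2 by 1.0, PLCG1 by 0.74 and PIK3CA by 0.46, while GRB2 fell by 0.40 and CRKL by 0.50. The median was 0.26 against 0.086 over all genes.

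The RAS-MAPK targets, of which EPHA2 is one, gave 9 of 10 for analysis and served to read the pathway below the receptors. With compound #57 against untreated cells, 0 of 9 passed. At an unadjusted p under 0.05 were 6 of 9, among them EPHA2 itself, beside 21.7% of all genes. The median was -1.66 against 0.047 over all genes. DUSP6, a phosphatase of ERK, had 985 reads in untreated Hep3B and 18 with compound #57, 2267 and 431 in Huh7, and 2300 and 612 in MHCC97H (average -3.36, SE 0.70, limma adjusted p = 0.0912). ETV4, a transcription factor, was at least 2-fold lower with compound #57 in all 3 lines, on either background. Against untreated cells, 4 of 9 fell with the combination and 0 rose, beside 15.1% and 20.9% of all genes. DUSP6 fell by 2.45 (limma adjusted p = 0.0234), ETV4 fell by 2.67 (adjusted p = 0.0131) and ETV5 fell by 2.49 (adjusted p = 0.0365), and the fourth is EPHA2 itself. DUSP4, another phosphatase of the family, had 1.25 (SE 0.51, adjusted p = 0.0786) and PHLDA1 0.40 (adjusted p = 0.452). SPRY4 and ETV5 were at least 2-fold lower in all 3 lines in the combination against AZD8055.

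Genes whose log2 values, centred within each cell line, moved most like a receptor over the 12 libraries were listed among genes with at least 25 reads in every library. For DDR1 these were STOML1 (Pearson's r 0.974), RP11-395B7.7 (0.964) and ZXDB (0.960). For EPHA2 they were LRWD1 (0.953), NR1D1 (0.939) and NKD1 (0.931), and for EPHA1 CMBL (0.945), ADPRHL2 (0.927) and MFF (0.923). For MET they were ZFYVE9 (0.968), SNUPN (0.943) and ACSL3 (0.940), and for PDGFRB TCF7L2 (0.958), SCRIB (0.944) and SERPINH1 (0.921). These values are the highest of about 9885 genes compared, the points share cell line and treatment, and they are given as a description. AXL had 10 reads or more in every library of 1 cell line only and was left out.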

How the data were processed

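RNA of 12 libraries was analysed. Per the labels and the study's methods, the authors prepared polyA+ libraries with a TruSeq kit, mapped them to hg38 and deposited a table of log2 values by gene and library. Aligner, counting and normalization are not given in the sources used here. The deposited log2 values equal the log2 of reads scaled to 10000000 plus 1, with 0.001 added, and give whole reads within 0.1 for 100% of values in every library. The table held 98.563% to 99.192% of the reads of a library, and its lowest mean log2 value was 4.647. It held all 6 receptors, and 305 genes had a 0.

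limma 3.58.1 (R 4.3.3, trended eBayes) was fitted to the log2 values of all genes, with treatment and cell line as terms (6 residual degrees of freedom), and with the effect of each drug in each cell line (3 residual degrees of freedom). p-values were adjusted by Benjamini-Hochberg over all 11548 genes for each comparison, with a threshold of 0.05. Libraries of a cell line form the pairs. Ratios of reads have 95% Clopper-Pearson intervals, and a fold against 0 reads uses a floor of 3. Within-line calls use log2 values, a 2-fold change and no test.

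The members and lists were chosen with earlier results of these data known. Named were the receptors, the 3 genes most like each, PTPN11, the ligands PROS1, EFNA1, GAS6 and HGF, and list genes that passed a test or changed 2-fold in all 3 lines with compound #57. Other genes were named after their values were seen. Marker lists of leukocytes (LYZ, 0.768 to 7512 scaled reads), endothelium (PECAM1, 4.30 to 541) and epithelium (6 of 7 analysed, summed 39860 to 75310) were read too. Coordinates are from GENCODE 44 and promoters from RefSeq, where all 6 receptors matched. Scripts were tested on simulated data. Alternatives were 10 added to the linear values, the 75% of genes with the highest mean, libraries centred on their medians, a fit without cell line, leaving out each line in turn, only the libraries compared and voom on whole reads. Python 3.11.15 was used with numpy 2.4.6, pandas 2.3.3 and scipy 1.17.1.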

Additional observations from a re-analysis of the deposited data

Results flagged for a closer look

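For MET, the compound #57 effect differed between Hep3B and MHCC97H by -0.93 on the log2 scale in limma's test of the difference (adjusted p = 0.029).

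Both pairs of libraries of a cell line moved opposite to both pairs of another, each beyond its counting interval, for 2 receptors with AZD8055. EPHA2 had log2 ratios of 0.81 (against untreated cells) and 1.16 (combination against compound #57) in Hep3B, and of -0.12 and -0.39 in MHCC97H. MET had -0.13 and -0.25 in Huh7 and 0.30 and 0.28 in MHCC97H. Neither difference was tested. For EPHA2, AZD8055 against untreated cells took part in the choice of the gene. The shorter exposure of MHCC97H cannot be told apart from the line itself.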

How the results depend on the processing

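The number of receptors called moved with the setting. For compound #57 against untreated cells, 0 became 1 with voom on the whole reads (EPHA1), 5 with the mean of both compound #57 comparisons, and 0 to 2 when a cell line was left out. The calls over all genes moved too, from 1 to 90 with voom, 1185 with the mean and 778 without MHCC97H. For the combination against AZD8055, 0 became 5 with that mean, while 0 genes of the table became 1185. For the combination against compound #57, 1 became 2 with only the libraries compared, 0 without the replicate block, that is, without the cell line term that pairs the libraries, and 0 whichever line was left out. Over all genes, 483 calls became 265 with only the libraries compared, 0 without the block, and 0 to 331 when a line was left out. For the combination against untreated cells, 2 became 0 without the replicate block, 4 with voom (with EPHA1 and PDGFRB), 1 with only the libraries compared, and 1 to 2 when a line was left out. Differences between lines in the compound #57 effect went from 1 to 2 with 10 added to the linear values (PDGFRB, Hep3B minus MHCC97H). The other 35 of 49 counts stayed within 1.5 times.

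Signs turned for values that passed in neither fit. When a line was left out, DDR1 in the combination against AZD8055 ran from -0.01 (without MHCC97H) to 0.32. In the combination against compound #57, EPHA2 ran from -0.15 to 0.63 and PDGFRB from -0.10 to 0.27 (the lowest without Hep3B), and MET from -0.10 (without MHCC97H) to 0.16. In the interaction, AXL ran from -0.89 to 0.76, EPHA1 from -0.02 to 0.10, EPHA2 from -0.18 to 0.14 and MET from -0.07 to 0.11. With voom, MET in the combination against compound #57 was -0.01, AXL in the combination against untreated cells was -0.03, and the interaction was 0.90 for AXL, -0.04 for EPHA1 and 0.00 for EPHA2. The interaction of EPHA1 was -0.07 with 10 added, and that of EPHA2 0.02 with centring. Between Huh7 and MHCC97H, the compound #57 effect of AXL differed by -0.53 and that of PDGFRB by 0.29 with voom, and for DDR1 Hep3B minus MHCC97H was 0.04 with centring and 0.00 with voom. The cause was not tested.

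With the 75% of genes with the highest mean, 3 of the receptors (DDR1, EPHA2 and MET) were left to test. AXL in Hep3B and Huh7, EPHA1 in MHCC97H and PDGFRB in MHCC97H are limited by depth. No protein was measured.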
